A study of Mus musculus with 8 samples.

Results

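Ribosomal protein genes encode the proteins of the large and the small subunit of the cytosolic ribosome. The signal of Bcl11b, a T cell transcription factor, was examined at them in thymocytes. The genes were chosen by symbol, among protein-coding genes of RefSeq on GRCm38.p6 (the mm10 coordinates): Rpsa, Rplp0, Rplp1, Rplp2 and every symbol in which Rpl or Rps is followed by a digit, without the Rps6k kinases. That gave 91 of 21887 genes, 56 with symbols of the large and 35 of the small subunit, on 19 chromosomes. The members described are the intervals of the authors' normalized table whose midpoint lay in the body of such a gene or within 1 kb of either end, 169 of 63098 intervals, at 84 of the 91 genes. The symbol rule also takes in Rps19bp1, which encodes a binding partner of the Rps19 protein and no subunit, and several paralogues and copies of ribosomal protein genes.

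Cells build ribosomes at a rate set by growth, and ribosomal protein genes are therefore transcribed together and strongly. Their mRNAs start with a pyrimidine-rich tract through which translation of the whole class is tuned by growth signals. Bcl11b, a protein with zinc fingers that binds DNA, is required for commitment to the T cell lineage and for its upkeep. Thymocytes pass through bursts of division, and in mice loss of Rpl22 blocks the development of alpha beta T cells, so that single ribosomal proteins also have roles of their own in this tissue.

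The assay was ChIP-seq, in which DNA fixed to a protein is recovered with an antibody, here from rabbit and against Bcl11b, and sequenced, and the cells were fresh mouse thymocytes fixed with formaldehyde. There were 3 libraries of Bcl11b+/N440K thymocytes, in which 1 allele of Bcl11b carries the N440K exchange and the other is wild type, and 3 of Bcl11b+/+ thymocytes. The 2 Bcl11b+/+ input libraries were not analysed here. No background level can therefore be given, and an interval is a place where the authors counted reads, not a binding site shown against input. Age, sex, strain background and whether each replicate was a separate mouse are not given in the sources used here. All p-values therefore reflect the variation among the 6 libraries alone, and part of it may be technical. Thymocytes are a mixture of stages: fewer cells of a stage and less binding per cell cannot be told apart. Signal is given as CPM, read counts scaled to a common total over the tested intervals by the trimmed mean (TMM) method. Reads over the tested intervals numbered 1609762 to 2400250 per library, and those over the 169 members 5823 to 8731. A member held between 5 and 203 reads in a library, with a median of 35. Intervals lay at 12 of 12 thymocyte marker genes, at 1 of 4 myeloid markers (not Adgre1, Csf1r and Lyz2) and at 1 of 3 erythroid markers (not Hba-a1 and Hbb-bs), which is binding and not expression. The summed signal of the thymocyte markers was 1720 to 1740 CPM in Bcl11b+/N440K and 1720 to 1800 CPM in Bcl11b+/+ libraries.

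Bcl11b signal lay at the start of most ribosomal protein genes: of the 70 with a listed start, 62 (88.6%) had a tested interval within 500 bp of it, against 51.1% of 17422 other protein-coding genes. To show where, the stretch from 150 bases before the annotated start to the 20 bases from the start on is printed for 7 genes, from RefSeq on GRCm38.p6. These are 3 genes picked from the 8 intervals with the highest signal (Rps12, Rpl13, Rpl27), the genes of the 2 intervals with the smallest p for a positive difference between genotypes (Rpl26, Rps21), and the T cell gene Rpl22 with its paralogue Rpl22l1. Capitals mark 3 features found by letter search: CCGGAA or its reverse complement TTCCGG, the core of sites for ETS factors, TCGCGA, and a run of at least 8 pyrimidines within 15 bases of the start.
Rps12: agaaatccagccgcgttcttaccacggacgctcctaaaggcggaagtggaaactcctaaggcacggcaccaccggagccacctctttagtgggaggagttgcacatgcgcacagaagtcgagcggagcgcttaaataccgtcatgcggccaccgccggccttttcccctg
Rpl13: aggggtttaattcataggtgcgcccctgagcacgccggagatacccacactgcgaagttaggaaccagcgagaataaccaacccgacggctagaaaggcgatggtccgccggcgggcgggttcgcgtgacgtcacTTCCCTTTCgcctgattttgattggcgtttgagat
Rpl27: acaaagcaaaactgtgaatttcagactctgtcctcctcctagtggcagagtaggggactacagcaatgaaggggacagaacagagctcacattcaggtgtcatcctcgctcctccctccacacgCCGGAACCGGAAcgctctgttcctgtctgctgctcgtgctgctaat
Rpl26: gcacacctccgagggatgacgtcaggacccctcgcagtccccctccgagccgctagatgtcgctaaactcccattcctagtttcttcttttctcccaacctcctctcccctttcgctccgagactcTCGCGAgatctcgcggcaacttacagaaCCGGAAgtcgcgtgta
Rps21: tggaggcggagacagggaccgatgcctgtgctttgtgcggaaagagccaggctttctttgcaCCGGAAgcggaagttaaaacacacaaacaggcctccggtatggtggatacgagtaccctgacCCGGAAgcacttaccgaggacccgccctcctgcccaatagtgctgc
Rpl22: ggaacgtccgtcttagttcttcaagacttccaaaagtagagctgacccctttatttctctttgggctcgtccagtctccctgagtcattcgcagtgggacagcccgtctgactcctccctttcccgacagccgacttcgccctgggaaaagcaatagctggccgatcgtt
Rpl22l1: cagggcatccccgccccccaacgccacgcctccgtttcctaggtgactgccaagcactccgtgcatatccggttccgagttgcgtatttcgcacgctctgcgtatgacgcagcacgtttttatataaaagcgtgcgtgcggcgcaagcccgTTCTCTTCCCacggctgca
The printed stretches lie, in the same order, at chr10:23787190-23787359 (minus strand), chr8:123102200-123102369 (plus strand), chr11:101442095-101442264 (plus strand), chr11:68901416-68901585 (plus strand), chr2:180257229-180257398 (plus strand), chr4:152325576-152325745 (plus strand) and chr3:28805358-28805527 (plus strand). The strongest interval of each gene overlapped its printed stretch, by 34 bases at Rpl13 up to all 170 at Rps21. In Rpl26 the stretch holds both TCGCGA and CCGGAA, in Rpl27 CCGGAA stands in tandem, and in Rps21 it occurs at separate places. None of the 3 features was found in the printed stretches of Rps12 and Rpl22. At Rps12 the pyrimidine run after the start reaches past the 15 bases and is not marked.

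Of the ribosomal protein genes, 70 had a listed promoter, from 250 bases before to 50 after the start. The words were searched in 1 promoter of each gene, on both strands. CCGGAA occurred in 45.7% of ribosomal protein promoters, against 19.4% of all 17492 promoters searched and 32.9% of the promoters of other genes with a tested interval within 250 bp of their start. TCGCGA occurred in 18.6% of them, against 3.45% and 5.75%. A run of 8 pyrimidines within 15 bases of the start, read on the gene's strand, was found in 38.6%, against 11.7% and 11%. The shorter word CTTTC lay there in 25.7%, against 3.68% and 3.22%. The word AAGATGG of YY1 occurred in 12.9%, against 6.41% and 7.88%. The core word of Runx factors, TGTGGT, was found in 11.4%, against 15.1% and 12.1%. TGACCA, a word bound by the paralogue BCL11A in human cells, was found in 12.9%, against 12.6% and 10.5%. GGGCGG, a word of SP factors, was in 58.6%, against 46.8% and 69.3%, CACGTG in 7.14%, against 7.96% and 11%, and TATAAA in 11.4%, against 13.2% and 5.68%. Median GC content was 57.0%, against 56.7% and 62.0%. These shares describe letters in fixed windows and were not tested.

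Signal was present at 92.3% of the ribosomal protein genes (84 of 91), against 59.8% of other protein-coding genes (13027 of 21796). The strongest interval of a gene had a median of 25.4 CPM at ribosomal protein genes and 22.8 CPM at other genes with an interval. Of the 84 genes, 28 had 1 interval, 33 had 2 and 23 had 3 or more, with at most 5 at Rpl7a. Ribosomal protein genes are short, with a median of 3175 bp against 17288 bp, and so offer less room for intervals away from the ends. Of the members, 81 lay in a gene body and 88 outside. Within 1 kb of 46 members, at 20 of the genes, lay another protein-coding gene as well, so that signal there cannot be given to either gene.

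The 7 genes without a tested interval were copies and paralogues, not the main genes of the ribosome. They were Rpl10l and Rpl39l, known in mice from the testis, Rpl31-ps12, whose symbol carries a pseudogene suffix although RefSeq lists it as protein-coding, and Rpl32l, Rpl37rt, Rps23rg1 and Rps27rt. Among paralogues with an interval the levels were uneven. Rps27l, a p53-responsive paralogue of Rps27, was among the 8 strongest members. Its interval 47 bp before the start had 47.6, 55.5 and 44.2 CPM in Bcl11b+/N440K libraries, against 50.2, 50.6 and 42.9 CPM in Bcl11b+/+ libraries. Rpl3l, the paralogue of Rpl3 known from muscle, stood lowest of the 84 genes, with 9.13 CPM at its strongest interval, 3949 bp from its own start and within 1 kb of Msrb1.

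The position of the signal was narrow. Among the 63 genes with both a listed start and an interval, the strongest interval was centred within 100 bp of the start in 40, within 250 bp in 55 and within 500 bp in 60. That is 95.2% within 500 bp, against 67.0% of 10498 other protein-coding genes. The median position was 30 bp upstream of the start, with quartiles at 82 bp upstream and 65 bp downstream. The exceptions were Rpl12, Rpl41 and Rpl3l, whose strongest intervals lay 1305, 1364 and 3949 bp downstream. At Rpl41, known for its very short protein, that interval lies within 1 kb of Zc3h10, and a weaker interval lay 127 bp upstream of the Rpl41 start. Intervals within 500 bp of the start had a median of 20.3 CPM (94 intervals), and those farther away 8.96 CPM (32 intervals).

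**Figure D1:**
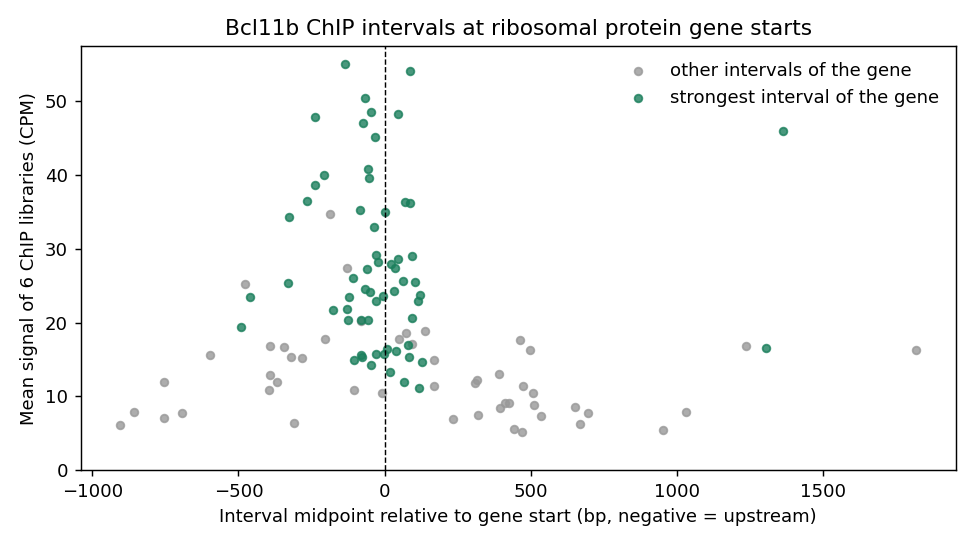
Mean CPM of the 6 ChIP libraries (vertical axis) against the distance of the interval's midpoint from the annotated gene start in bp (horizontal axis), for 112 of the 126 intervals at genes with a listed start. Green points, the strongest interval of each gene, cluster at the dashed start line, and grey points, the other intervals, are lower and more spread.

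The level differed 9.13-fold between the strongest intervals of the 84 genes, with quartiles at 20.3 and 36.2 CPM. In 65 of the genes the strongest interval belonged to the top quartile of all tested intervals, and in 81 it was above the median. The strongest interval of a gene is a maximum, which favours high values. At other genes with an interval its median was 22.8 CPM, also within that top quartile, against 25.4 CPM at ribosomal protein genes. The counts of 65 and 81 therefore do not by themselves set ribosomal protein genes apart. The median of the strongest intervals was 24.4 CPM at large and 27.2 CPM at small subunit genes, and this difference was not tested. The strongest member lay just outside the annotated body of Rpl3 (chromosome 15, 80083451 to 80083651), which encodes a core protein of the large subunit at its peptidyl transferase centre. It had 95.2, 68.3 and 88.5 CPM in Bcl11b+/N440K libraries, against 92.9, 83.6 and 71.7 CPM in Bcl11b+/+ libraries, so the genotypes overlapped fully. On average it had 84.0 ± 14 CPM in Bcl11b+/N440K and 82.7 ± 10.7 CPM in Bcl11b+/+ thymocytes (SD, n = 3 each), which was above 99.7% of all tested intervals. The log2 fold change was 0.04 ± 0.12 (SE; edgeR quasi-likelihood test, adjusted p = 0.935).

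Next came Rps29, a small subunit gene with 3 intervals. Its strongest (chromosome 12, 69159571 to 69159771) had 57.6, 61.6 and 69.7 CPM in Bcl11b+/N440K libraries, against 83.6, 61.3 and 73.8 CPM in Bcl11b+/+ libraries. Rps14, whose human counterpart is lost in the 5q- syndrome, had 72.5, 64.7 and 61.9 CPM in Bcl11b+/N440K libraries, against 66.9, 64.2 and 40.8 CPM in Bcl11b+/+ libraries. At Rps14 the Bcl11b+/+ replicate 3 stood below all other libraries. Rps12, which encodes a protein of the small subunit, had 53.2, 63.5 and 59.9 CPM in Bcl11b+/N440K libraries, against 56.4, 52.3 and 45.1 CPM in Bcl11b+/+ libraries. Rpl13 averaged 58.1 ± 12.5 CPM in Bcl11b+/N440K and 50.2 ± 5.36 CPM in Bcl11b+/+ thymocytes, and Rpl27 averaged 45.7 ± 10.1 CPM in Bcl11b+/N440K and 50.7 ± 6.86 CPM in Bcl11b+/+ thymocytes (SD, n = 3 each). Rpl37, whose interval also lies near Card6, averaged 50.1 ± 10.2 CPM in Bcl11b+/N440K and 50.7 ± 6.88 CPM in Bcl11b+/+ thymocytes (SD, n = 3 each). In each of these 8 strongest intervals, Rps27l included, the libraries of the genotypes overlapped, and the adjusted p ranged from 0.517 to 0.954 (edgeR).

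The X-linked genes stood at the low end. The strongest intervals of Rpl10, Rpl36a, Rpl39 and Rps4x had between 11.1 and 15.6 CPM. Their median was 13.3 CPM in Bcl11b+/N440K and 12.9 CPM in Bcl11b+/+ thymocytes, while the 80 autosomal genes had 28.4 CPM in Bcl11b+/N440K and 24.8 CPM in Bcl11b+/+ thymocytes. Other genes showed a like gap at their starts: 262 X-linked genes had medians of 12.9 CPM in Bcl11b+/N440K and 12.4 CPM in Bcl11b+/+ thymocytes, and 8643 autosomal genes had 23.2 CPM in Bcl11b+/N440K and 22.1 CPM in Bcl11b+/+ thymocytes. The part of sex in this was not tested.

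The study's comparison asks which sites bind Bcl11b differently in Bcl11b+/N440K and Bcl11b+/+ thymocytes. No interval at a ribosomal protein gene passed the test. EdgeR's quasi-likelihood test, fitted over all 63098 intervals, called 0 of the 169 members at an adjusted p under 0.05, against 1.14% of all tested intervals (0.46% higher and 0.681% lower in Bcl11b+/N440K). DESeq2 and limma voom also called 0, against 0.0951% and 0.504% of all tested intervals. A p that misses the threshold does not show that binding was the same. At an unadjusted edgeR p under 0.05, 14 members were higher and 3 lower in Bcl11b+/N440K, which is 8.28% and 1.78%, against 6.16% and 6.52% of all tested intervals. Within 500 bp of the starts of other genes these shares were 5.75% and 3.37%. In the top quartile by CPM they were 18.4% and 2.63% of members, against 8.91% and 1.11% at other starts. In all, 17 members reached that p, against 12.7% of all tested intervals. Log2 fold changes of the members ran from -0.65 to 0.70. The 95% interval of the fold change lay wholly within a 2-fold change for 149 of the 169 members, or 88.2%, against 71.2% of all tested intervals. In the other 20 it reached a 2-fold change in some direction. The order of the members' levels was nearly the same in both genotypes: over the 169 intervals the log2 mean CPM of Bcl11b+/N440K and Bcl11b+/+ correlated at Pearson's r = 0.955 and Spearman's rho = 0.961. These points share their libraries and are not independent. Between single libraries r was 0.88 to 0.93 across genotypes and 0.905 to 0.931 within a genotype.

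**Figure D2:**
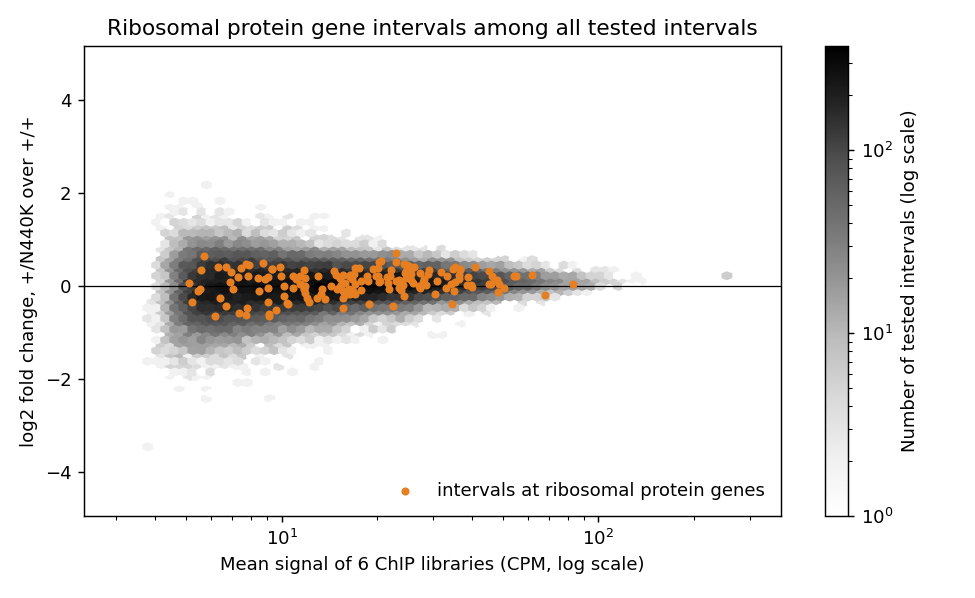
Log2 fold change of Bcl11b+/N440K over Bcl11b+/+ (vertical axis) against mean CPM of the 6 libraries (horizontal axis, log scale), with all 63098 tested intervals as grey bins and the 169 members as orange points. The members lie between -0.65 and 0.70 and stay inside the cloud of all intervals.

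Although no single site passed, the members as a group sat slightly to the positive side. Their median log2 fold change was 0.10, against 0.00 over all tested intervals and 0.04 over 14148 intervals within 500 bp of the start of another protein-coding gene. Of the members, 108 (63.9%) were positive, against 50.5% of all tested intervals and 56.1% of those at other starts. The shift was larger at the strongest interval of each gene, with a median of 0.10, a mean of 0.12 and 63 of 84 positive, than at the other 85 intervals, with a median of 0.05, a mean of 0.02 and 45 positive. By signal strength the medians were uneven. In the top quartile of all tested intervals by CPM the 76 members had a median of 0.14, against 0.06 over all intervals of that quartile and 0.08 over those at other starts. In the other quartiles, from strong to weak, the members had medians of -0.01, 0.09 and 0.05, against 0.01, -0.04 and -0.08 over all intervals and 0.02, -0.07 and -0.13 over those at other starts. Small subunit genes had a median of 0.12 (59 intervals) and large subunit genes 0.05 (110 intervals). Within 500 bp of a start the median was 0.09 and 64 of 94 members were positive, and farther away it was -0.02 with 16 of 32 positive. None of these medians was tested.

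The shift depended on single libraries. Relative to the mean of the Bcl11b+/+ libraries, and with a pseudocount of 0.5 CPM, the median log2 ratio of the members was 0.12, 0.06 and 0.05 in Bcl11b+/N440K replicates 1, 2 and 3, and 0.02, 0.05 and -0.11 in Bcl11b+/+ replicates 1, 2 and 3. The genotypes therefore met, with Bcl11b+/N440K replicate 3 level with Bcl11b+/+ replicate 2. The members held 0.375%, 0.368% and 0.36% of the reads of the Bcl11b+/N440K libraries, and 0.362%, 0.364% and 0.323% of those of the Bcl11b+/+ libraries. Without Bcl11b+/+ replicate 3 the members' median was 0.04, and 5 members were higher and 5 lower at an unadjusted p under 0.05. Without Bcl11b+/N440K replicate 1 the median was 0.05, with 11 higher and 3 lower, and without any other library it was 0.11 to 0.13. Without Bcl11b+/N440K replicate 2, 7 members were higher and 2 lower. Bcl11b+/+ replicate 3 was also the lowest library at the starts of other genes, with a median of -0.07. What set it apart was not tested. Summed signal at the B cell markers with intervals, Cd79a, Ebf1 and Pax5, was 113 to 121 CPM in Bcl11b+/N440K and 124 to 131 CPM in Bcl11b+/+ libraries, which did not overlap. At the myeloid marker with intervals it was 62.8 to 77.6 CPM in Bcl11b+/N440K and 71.2 to 113 CPM in Bcl11b+/+ libraries, and at the erythroid one 13.3 to 19.3 CPM in Bcl11b+/N440K and 16.5 to 23.2 CPM in Bcl11b+/+ libraries. The part of these in the shift was not tested.

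**Figure D3:**
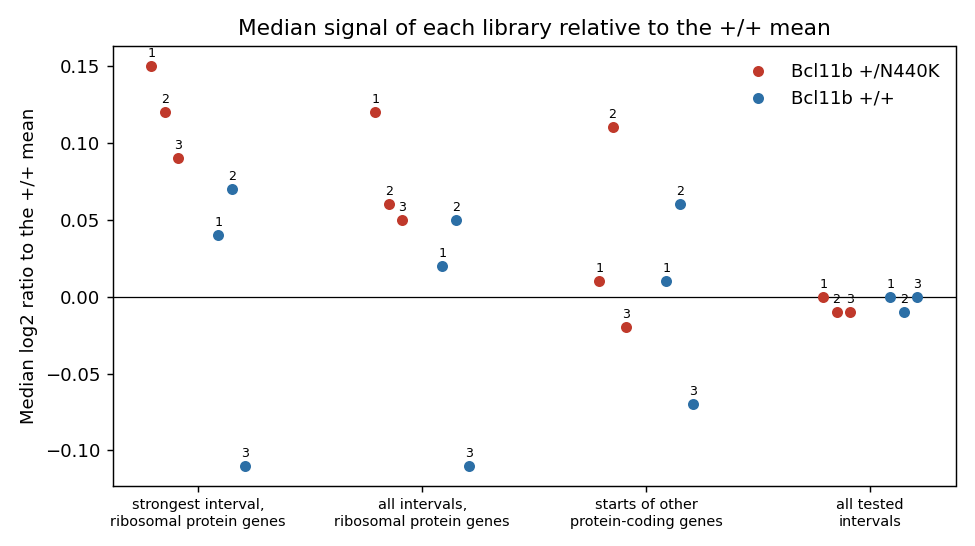
Median log2 ratio of each library to the mean of the 3 Bcl11b+/+ libraries (vertical axis), for 4 sets of intervals, with Bcl11b+/N440K libraries in red left of Bcl11b+/+ libraries in blue and replicate numbers above the points. At ribosomal protein genes Bcl11b+/+ replicate 3 stands alone at -0.11, while the medians over all tested intervals lie between -0.01 and 0.

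At 33 members the 3 libraries of each genotype were fully separate. In 25 of them (14.8%) all Bcl11b+/N440K libraries were higher, against 8.34% of all tested intervals, and in 8 (4.73%) all were lower, against 8.95%. At the starts of other genes these shares were 8.84% higher and 5.79% lower. In the top quartile by CPM they were 23.7% and 2.63% of members, against 12.7% and 2.62% at other starts. The low share of lower intervals was thus also seen at strong starts of other genes. The largest positive difference was at Rpl26, a large subunit gene whose protein also binds p53 mRNA. Its interval 30 bp before the start (chromosome 11, 68901436 to 68901636) had 26, 25.6 and 33.8 CPM in Bcl11b+/N440K libraries, against 13.6, 16.1 and 22.3 CPM in Bcl11b+/+ libraries. Every Bcl11b+/N440K library was above every Bcl11b+/+ library. The log2 fold change was 0.70 ± 0.21 (SE; 95% interval 0.28 to 1.11; edgeR adjusted p = 0.0784), which did not pass. Without Bcl11b+/+ replicate 3 it was 0.93 and passed, with edgeR adjusted p = 0.0404, the only 1 of 16 alternatives in which it did. Rps21, which encodes a small protein of the small subunit, had 53.2, 42.7 and 43.2 CPM in Bcl11b+/N440K libraries, against 38.4, 37.9 and 29.2 CPM in Bcl11b+/+ libraries. Its log2 fold change was 0.41 ± 0.16 (SE; edgeR adjusted p = 0.216). Rpl19, a large subunit gene, had 39.9, 36.6 and 43.2 CPM in Bcl11b+/N440K libraries, against 35.9, 24.3 and 31.3 CPM in Bcl11b+/+ libraries (log2 fold change 0.41 ± 0.17, SE; edgeR adjusted p = 0.252). At both genes the genotypes did not overlap, by a narrow margin.

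Rpl14, also of the large subunit, had 18.8, 29.3 and 25.5 CPM in Bcl11b+/N440K libraries, against 14.9, 20.2 and 15 CPM in Bcl11b+/+ libraries, which overlap (edgeR adjusted p = 0.25). Among the negative differences, the second interval of Rps29 (69159186 to 69159386) had 33.2, 32.9 and 23.4 CPM in Bcl11b+/N440K libraries, against 43.4, 38.3 and 36.1 CPM in Bcl11b+/+ libraries. Its log2 fold change was -0.39 ± 0.17 (SE; edgeR adjusted p = 0.302). Other negative differences were at weaker or shared sites, in Rpl36 within 1 kb of Lonp1, near Rpl3l, and 5804 bp from the start of Rps10, with log2 fold changes of -0.44, -0.65 and -0.61 and adjusted p of 0.339, 0.364 and 0.401 (edgeR).

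**Figure D4:**
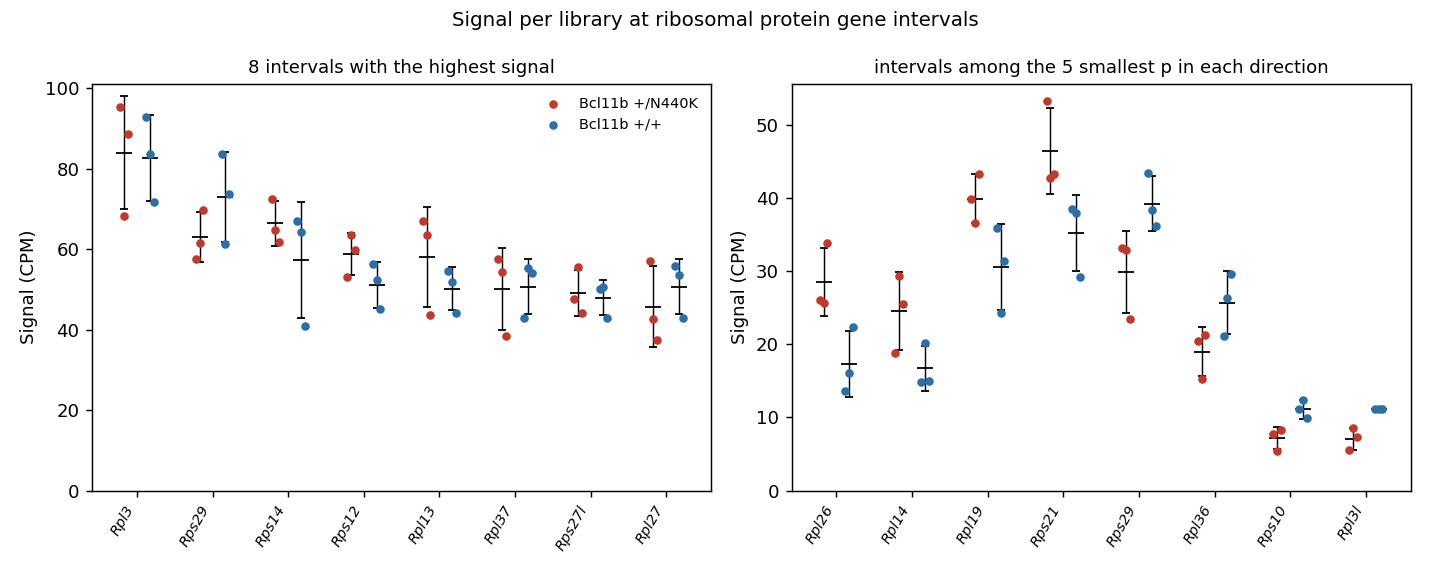
CPM in each library (points), mean (dash) and SD (bar, n = 3) at the 8 intervals with the highest signal (left) and at intervals from the 5 lowest p values of either direction (right), Bcl11b+/N440K in red left of Bcl11b+/+ in blue. At the strongest intervals the genotypes overlap, and at Rpl26 and Rps21 the red points lie above the blue ones.

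Genes with known roles beyond the ribosome were chosen by name. Rpl22 binds RNA and is needed for alpha beta T cells in mice. Its interval at the start had 30.5, 30.5 and 25.5 CPM in Bcl11b+/N440K libraries, against 30.4, 30.5 and 24.5 CPM in Bcl11b+/+ libraries. The values were almost equal, with a log2 fold change of 0.02 ± 0.18 (SE; 95% interval -0.34 to 0.38; edgeR adjusted p = 0.978). Its paralogue Rpl22l1 had 13.8, 11 and 12.5 CPM in Bcl11b+/N440K libraries, against 14.3, 14.8 and 13.3 CPM in Bcl11b+/+ libraries. Here the log2 fold change was -0.18 ± 0.25 (SE; 95% interval -0.68 to 0.33; edgeR adjusted p = 0.835). Rpl5, Rpl11 and Rpl23, which bind Mdm2 and so stabilise p53, had log2 fold changes of 0.04, -0.12 and -0.22. At Rpl5 the Bcl11b+/N440K libraries had 24.9, 23.8 and 23.4 CPM and the Bcl11b+/+ libraries 21.7, 34.2 and 13.7 CPM. The Bcl11b+/+ libraries lay on both sides of the Bcl11b+/N440K ones, and the sign of the fold change turned in 3 of 16 alternatives.

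The stalk proteins, which recruit elongation factors, are encoded by Rplp0, Rplp1 and Rplp2. Rplp0 had 30.5, 25 and 25.5 CPM in Bcl11b+/N440K libraries, against 21.1, 21.8 and 23.6 CPM in Bcl11b+/+ libraries. The genotypes did not overlap, but the difference, 0.28 ± 0.19 on the log2 scale (SE), did not pass (edgeR adjusted p = 0.588). Rplp1 and Rplp2 had 0.18 and 0.08. Rps6, whose protein is the substrate of the S6 kinases, had 27.7, 26.8 and 30.2 CPM in Bcl11b+/N440K libraries, against 24.2, 25.5 and 18.5 CPM in Bcl11b+/+ libraries, without overlap (log2 fold change 0.32 ± 0.19, SE; edgeR adjusted p = 0.502). Rps19, the gene most often mutated in human Diamond-Blackfan anaemia, averaged 27.5 ± 1.72 CPM in Bcl11b+/N440K and 23.3 ± 3.19 CPM in Bcl11b+/+ thymocytes (SD, n = 3 each; edgeR adjusted p = 0.66). Rpsa, which also encodes the laminin receptor, differed by 0.33 ± 0.18 on the log2 scale (SE; adjusted p = 0.453 by edgeR), Rpl10 had 0.17, and Rps27a, which is made as a fusion with ubiquitin, had -0.09.

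Reads were also summed over all intervals of a gene, so that weak intervals of a gene add up. CPM of these sums was scaled to totals over the tested genes, so it is not on the scale of the interval CPM. Over 13710 protein-coding genes edgeR called 4.11%, and 0 of the 84 ribosomal protein genes. DESeq2 and limma voom called 0 of them as well. At an unadjusted p under 0.05, 10 were higher in Bcl11b+/N440K and 0 were lower, against 7.17% and 9.24% of all genes. The median log2 fold change was 0.07, against 0.00 over all genes, and 61 of 84 were positive. For all 84 genes the 95% interval lay within a 2-fold change. Rpl36al, whose promoter lies beside that of Mgat2 and shares its intervals, had the smallest p. Its sums were 118, 146 and 96.6 CPM in Bcl11b+/N440K libraries, against 99.3, 98.5 and 89.9 CPM in Bcl11b+/+ libraries (log2 fold change 0.32 ± 0.12, SE; edgeR adjusted p = 0.12). It passed in the fit without Bcl11b+/N440K replicate 3, with a log2 fold change of 0.46 and adjusted p = 0.0238 (edgeR). Next by p were Rps21, Rpl14, Rps20 and Rpl15, with log2 fold changes of 0.40, 0.52, 0.33 and 0.30 and adjusted p of 0.14, 0.186, 0.186 and 0.187 (edgeR). All intervals of Rpl15 also lie within 1 kb of Nkiras1, so its sum cannot be given to either gene. At Rps20 the sums were 59.1, 56.7 and 56.6 CPM in Bcl11b+/N440K libraries, against 49.0, 41.5 and 47.5 CPM in Bcl11b+/+ libraries.

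Other genes of protein synthesis showed the same wide presence of signal. Mitochondrial ribosomal proteins, which belong to a separate ribosome, had an interval at 78 of 78 genes, and ribosome biogenesis factors at 42 of 42. Translation initiation and elongation factors, taken by their Eif and Eef symbols, had one at 66 of 71 genes, and the S6 kinases at 9 of 10. EdgeR called 0 of 154 mitochondrial, 0 of 107 biogenesis and 0 of 41 S6 kinase intervals, and 1 of 188 at translation factors. At an unadjusted p under 0.05, 8 mitochondrial intervals were higher and 2 lower, 3 biogenesis intervals were higher and 2 lower, 2 S6 kinase intervals were higher and 2 lower, and 7 translation factor intervals were higher and 6 lower. Over all tested intervals these shares were 6.16% higher and 6.52% lower, and 1.14% were called. DESeq2 and limma voom called 0 in each of these lists. The medians were 0.04 for mitochondrial, 0.01 for biogenesis, 0.03 for S6 kinase and 0.04 for translation factor intervals. The call was at Eif4e2, which encodes a cap-binding repressor of translation. It rose to 16.1, 16.5 and 9.89 CPM in Bcl11b+/N440K libraries, against 6.82, 6.59 and 4.72 CPM in Bcl11b+/+ libraries. This was a 2.33-fold difference (log2 1.22 ± 0.31, SE; adjusted p = 0.0292 by edgeR). This call was lost with DESeq2 and limma voom and without replicate 1 or 2 of Bcl11b+/N440K or replicate 2 or 3 of Bcl11b+/+. With the replicate number as a block, the mitochondrial Mrps14 was also called (log2 0.67 ± 0.18, SE; adjusted p = 0.0396 by edgeR), and without replicate 2 of Bcl11b+/N440K an interval shared by Mrps18b and Ppp1r10 was (0.57; adjusted p = 0.0465 by edgeR). The strongest interval of each list did not pass, at Mrpl58, Wdr12, Eif2b4 and Rps6kb1, with log2 fold changes of 0.15, 0.15, 0.19 and -0.03. Rack1, the ribosome's scaffold for kinase signalling, had 30.5, 21.4 and 29.1 CPM in Bcl11b+/N440K libraries, against 23.5, 19.3 and 16.7 CPM in Bcl11b+/+ libraries (log2 fold change 0.47; edgeR adjusted p = 0.29).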

How the data were processed

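Bcl11b ChIP-seq counts of 3 Bcl11b+/N440K and 3 Bcl11b+/+ thymocyte libraries were used. The build was mm10 and the tools were edgeR 3.38.2, MACS2, bedtools, SAMtools 1.9, fastp 0.20.0 and Bowtie2 2.3.5, per the submitters' processing notes, which state neither their roles nor their order. Peak calling by library or on pooled reads, and the handling of reads that map to several places, which could change signal at gene copies, are not stated there. The authors deposited raw counts of reads in 93708 intervals and CPM values for 63098 of them. Every CPM value was a whole count divided by 1 constant per library (100% within 0.01 reads).

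Counts were filtered with filterByExpr, which left the same 63098 intervals, TMM-scaled and tested with edgeR 4.0.16 (glmQLFit, glmQLFTest; genotype as the only term; two-sided; Benjamini-Hochberg adjustment over all intervals; threshold 0.05) in R 4.3.3. Sums per gene were tested likewise. Alternatives used DESeq2 1.42.0, limma 3.58.1 voom, other scalings, filters, distances and a replicate block, and left out each library. Counts of libraries of 1 genotype differed by a chi-square per degree of freedom of 1.24 to 1.42, so none was a copy. Named intervals were the 5 smallest p in each direction, the 8 highest CPM, and the strongest interval of 14 genes chosen by role; all called ones would have been added. Members and lists were chosen with earlier results of these data known, and Rpl41, Rpl12, the X-linked genes and the run of pyrimidines after values or sequences were seen. Coordinates are 1-based. Some genes of the lists and some named intervals are not reported here. No listed promoter was found for 21 genes. Python 3.11.15 was used.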

Additional observations from a re-analysis of the deposited data

Results flagged for a closer look

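The count table held 7 further intervals at ribosomal protein genes that the CPM table leaves out. No comparison of single intervals above uses these 7. The sums per gene do include their reads, except at Rpl37rt, which was not among the genes tested on sums. Their highest count in a library was 18 reads at Rps23, 13 at Rps19bp1, 10 at Rpl3l, 13 at Rpl31, 15 at Rpl37rt, 20 at Rps13 and 16 at Rps16. The lowest was 0 reads, at Rpl3l, and no background level was at hand to set these counts against. The Rpl37rt interval is the only interval at that gene, with 15, 1 and 10 reads in Bcl11b+/N440K libraries and 5, 15 and 9 reads in Bcl11b+/+ libraries. With no filter on low counts, edgeR called 0 of these 7 intervals, with adjusted p of 0.254 to 0.992 and 1, at Rps23, at an unadjusted p under 0.05; DESeq2 and limma voom were not run on them.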

How the results depend on the processing

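The count of 0 called members held under each scaling, tool, filter and gene distance tried, and without each library it was 0 to 1. With gene bodies alone or without intervals shared with another gene it could only be 0, as these take from the same uncalled members. An adjusted p under 0.01 in the same fit could not raise it either. On counts summed per gene the number of called ribosomal protein genes was likewise 0, and 0 to 1 without each library. Over all intervals, 720 calls became 60 with DESeq2, 318 with limma voom, 327 at or above the median CPM, 207 at an adjusted p under 0.01, and 301 to 588 without each library. The related lists had 1 call, 0 with DESeq2, limma voom, the median filter and an adjusted p under 0.01, 2 with the replicate block and 0 to 1 without each library. Fits without a library use fewer samples, the median filter tests fewer intervals and the stricter adjusted p asks for more; the cause was not tested for the tools and the block. The members' median was 0.04 to 0.13 in all settings. Presence was 62.6% when the midpoint had to lie in the gene body, against 53.4% of other protein-coding genes. Of 493 values of named intervals under alternatives, 492 stayed on the same side of the threshold, Rpl26 without Bcl11b+/+ replicate 3 being the exception. None was called with all 6 libraries, and the sign turned in 5 of 16 alternatives for Rpl22, 4 for Rps27l, 3 each for Rpl3, Rpl37 and Rpl5, and 1 each for Rpl11, Rplp2 and Rps27a. Of the 16 alternatives, 1 refitted reads recovered from the CPM values. These equal the raw counts, so its values could not differ. DESeq2, limma voom and the fits without a library called fewer intervals in all, so an interval staying uncalled there says little. With the replicate block 0 members and 753 intervals in all were called. The labels give replicate numbers but do not say whether a number pairs libraries across genotypes. For numbers 1, 2 and 3 the correlation of deviations across genotypes was -0.00424, 0.0244 and 0.055. For pairs with unequal numbers across genotypes it ran from -0.0449 to 0.0187. Values this small cannot show whether the libraries were paired. At a median of 35 reads a member, the median SE was 0.23 on the log2 scale.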

Other observations

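No tested interval had its midpoint in the body of any of the 318 RefSeq pseudogenes whose symbols mark them as copies of ribosomal protein genes. Over all 10442 pseudogenes, 183 (1.75%) held 1. With the same rule on gene bodies alone, 57 of the 91 ribosomal protein genes did (62.6%). The handling of reads that map to several places is not stated in the sources used, and its part in this was not tested.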
